A study of Rattus norvegicus with 6 samples.

Results

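The respiratory chain genes described here are the 97 gene rows of 32883 in a rat hippocampal culture RNA-seq table whose symbols name a subunit of complexes I to V, cytochrome c or a closely named relative, and whose mean normalised count over the 6 libraries was at least 10. Symbols alone matched 105 rows, and 8 of them fell under that mean. Of the 97 members, 84 are encoded in the nucleus and 13, with the prefix Mt-, in the mitochondrial genome. The 3 cLTP cultures received 50 μM forskolin, which activates adenylyl cyclase, 50 nM rolipram, which inhibits the phosphodiesterase PDE4, and 200 μM picrotoxin, which blocks GABA-A receptors. The mixture is a standard way to potentiate synapses chemically, hence the name (chemical long-term potentiation). The 3 DMSO cultures received the solvent alone. All 6 were primary cultures from the hippocampus of Wistar rat pups of postnatal day 0, treated on day 13 to 15 in vitro, and no genetic change is named for either group. The time between adding the drugs and collecting the RNA is not stated.

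Complexes I and II pass electrons from NADH and succinate to ubiquinone, complex III passes them on to cytochrome c, and complex IV passes them from cytochrome c to oxygen. Complexes I, III and IV pump protons across the inner mitochondrial membrane, and complex V, the ATP synthase, uses the returning protons to make ATP. The subunits come from separate genomes: a core set of very hydrophobic subunits is transcribed inside the organelle from long polycistronic RNAs, and the rest is transcribed in the nucleus and imported. Neurons depend heavily on this pathway to restore ion gradients after firing.

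The libraries were made from polyadenylated RNA, per the labels, and held 10668973 to 11792935 recovered reads in the cLTP group and 10988014 to 12776185 in the DMSO group. A passage of the library protocol gives sorted brain cells as the RNA source, which conflicts with the culture labels used here and was set aside. All 5 neuronal and all 6 astrocyte markers looked up were detected in every library, so the cultures held glia beside the labelled neurons. Replicate 3 stood apart in both groups. Its summed microglial markers reached 462 in cLTP and 436 in DMSO, against 2.25 to 6.66 in the other libraries, and its summed astrocyte markers were lower (134893 in cLTP and 116555 in DMSO, against 179969 to 191084 in the other libraries). Summed neuronal markers were 35425 to 45506 in cLTP and 36398 to 44671 in DMSO. Summed inhibitory neuron markers were 16091, 18874 and 22776 in cLTP 1, 2 and 3, against 13904, 16456 and 17681 in DMSO 1, 2 and 3, and all 5 of them were higher in the cLTP library under every number. In bulk RNA of this kind, fewer cells of a type and less RNA per cell cannot be told apart. Values are normalised read counts not divided by gene length, so they are compared between libraries and not between genes.

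Most nuclear members were slightly higher after cLTP. Of the 13 Mt- members 10 had slightly negative values. The groups overlapped in all 13, as they did in 12428 of the 17315 genes tested. The median log2 fold change of the 84 nuclear members was 0.13, a fold of 1.09, against 0.002 for all 17315 genes tested. Of the 84, 78 had a positive and 6 a negative log2 fold change, where 50.4% of all genes tested were positive and 49.6% negative. In 39 of them every cLTP library lay above every DMSO library, which is 46.4% of the nuclear members beside 15.0% of all genes tested, and in 1 every cLTP library lay below (13.3% of all genes tested). Few single genes passed the test. With limma and Benjamini-Hochberg adjustment over all genes, 4 nuclear members were higher at an adjusted p under 0.05 (4.76%, beside 5.71% of all genes tested) and 0 were lower (3.31% of all genes tested). At an unadjusted p under 0.05, 19 were higher and 1 was lower, beside 11.1% and 9.90% of all genes tested.

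**Figure D1:**
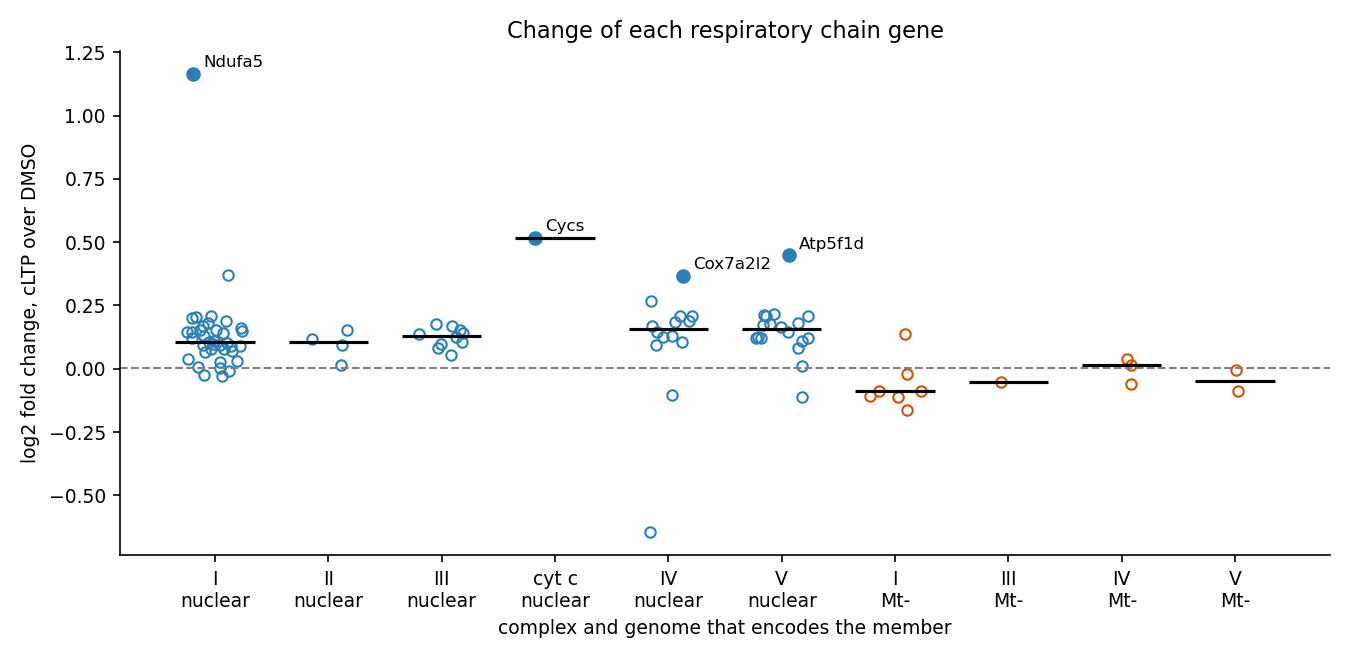
The vertical axis gives the log2 fold change, cLTP over DMSO, of each of the 97 members (n = 3 libraries per group), arranged by complex and by encoding genome. Filled points passed an adjusted p of 0.05 in limma, open points did not, and horizontal bars are medians. Nuclear medians lie between 0.10 and 0.52, and the Mt- medians between -0.09 and 0.02.

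The libraries of the groups carry the numbers 1 to 3, and same-numbered libraries deviated together from their group means (correlations across genes of 0.22, 0.30 and 0.54). When the number entered limma as a block, 25 nuclear members (29.8%) were higher and 0 lower, beside 12.9% and 10.7% of all genes tested. They were 4 of 37 rows named for complex I (10.8%), 0 of 4 of complex II, 5 of 10 of complex III (50%) and cytochrome c. Complex IV added 6 of 14 (42.9%) and complex V 9 of 18 (50%). The complex I share was below the 12.9% of all genes tested, and its 4 rows include Ndufa4, known as a subunit of complex IV. Compared number by number, 77, 66 and 76 of the 84 were higher in the cLTP library of replicate 1, 2 and 3, with median differences of 0.14, 0.07 and 0.18 on the log2 scale. The same medians over all genes tested were 0.000, 0.004 and 0.02. In 59 nuclear members (70.2%) the cLTP library was higher under every number, beside 27.5% of all genes tested, and in 1 it was lower under every number (24.9% of all genes tested). The inhibitory neuron markers shared this direction under every number. So did the summed oligodendrocyte lineage markers (3842, 3747 and 2799 in cLTP 1, 2 and 3, against 3619, 3570 and 2447 in DMSO 1, 2 and 3), though single markers of that list were mixed. Summed excitatory neuron markers were mixed in direction (19362, 13731 and 16844 in cLTP, against 18328, 14456 and 17776 in DMSO). Single markers of that list went apart. Slc17a6 was higher under every number (550, 428 and 712 in cLTP, against 287, 248 and 330 in DMSO). Neurod6 was lower under every number (1141, 746 and 930 in cLTP, against 1376, 1104 and 1471 in DMSO), and Slc17a7 and Camk2a were mixed. The part of these cells in the nuclear values was not tested.

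**Figure D2:**
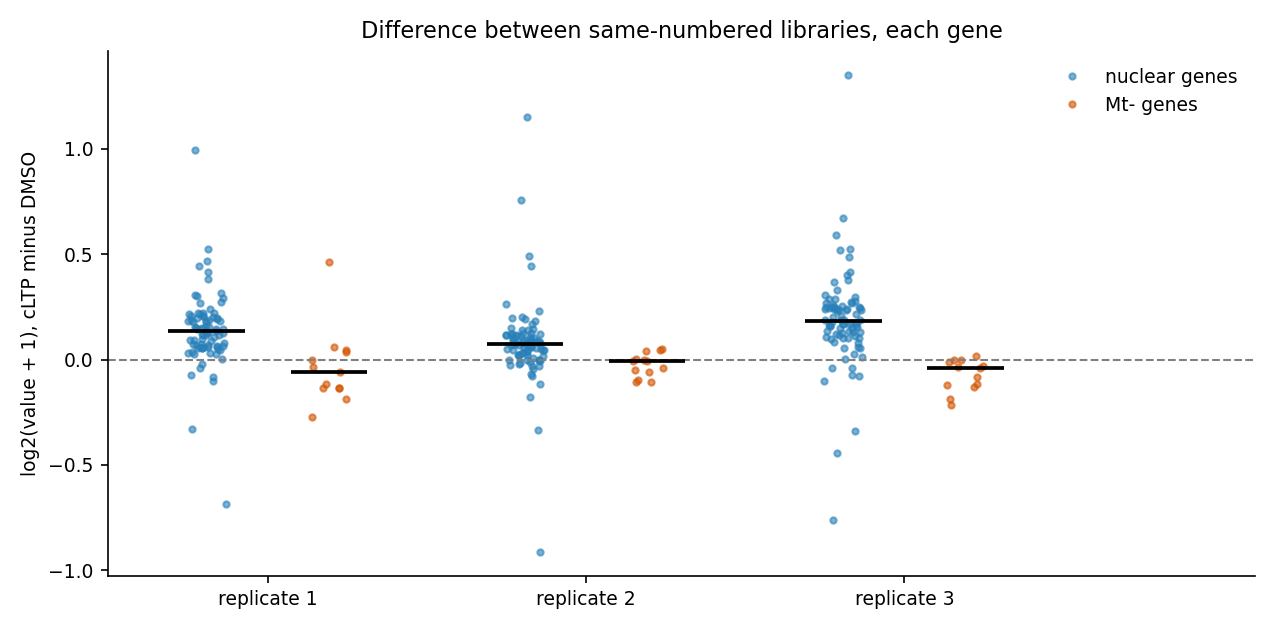
Each point is a member's difference on the log2(value + 1) scale, cLTP minus DMSO, between libraries of the same replicate number. Nuclear members (left of each pair) have medians (bars) of 0.14, 0.07 and 0.18 in replicates 1, 2 and 3, and Mt- members (right) of -0.06, -0.01 and -0.04.

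The small common shift depends on how the libraries are scaled. The deposited values summed to 11876400 to 12222200 in cLTP libraries and 10819800 to 11291900 in DMSO libraries. Scaling all libraries to equal totals moved the median of all genes to -0.11 on the log2 scale and the nuclear median to 0.01. Of the 84 members 50 were then positive, with the median of all genes negative. The 50.4% of all genes positive as deposited therefore does not apply to that count. Relative to all genes, the nuclear median was 0.12 under that scaling and 0.13 as deposited. Without the block, equal totals left 2 nuclear members higher (Ndufa5 and Atp5f1d, beside 4.75% of all genes tested) and 1 lower (Cox7a1, beside 7.64%), and quantile normalisation left 4 higher (beside 5.18%) and 0 lower (beside 4.61%). Combined with the block, equal totals gave 4 higher and 1 lower nuclear members, beside 8.14% and 23.1% of all genes tested. Quantile normalisation with the block gave 5 higher and 1 lower, beside 9.40% and 15.7%. Among the members named in this text, the sign of small shifts depended on the scaling too. Mt-co1, Ndufs1, Sdha, Sdhb, Cyc1, Cox6a1 and Cox7a2l turned negative under both scalings, Mt-co3 and Atp5mc2 with equal totals, and Uqcrc2 and Atp5f1b after quantile normalisation. The summed nuclear members showed the same dependence. The sums were 96658, 92865 and 102717 in cLTP 1, 2 and 3, against 86868, 87041 and 89092 in DMSO 1, 2 and 3, and the groups did not overlap. As a share of all normalised counts, the nuclear members made up 0.804%, 0.760% and 0.865% in cLTP libraries and 0.769%, 0.776% and 0.823% in DMSO libraries, and the groups overlapped.

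**Figure D3:**
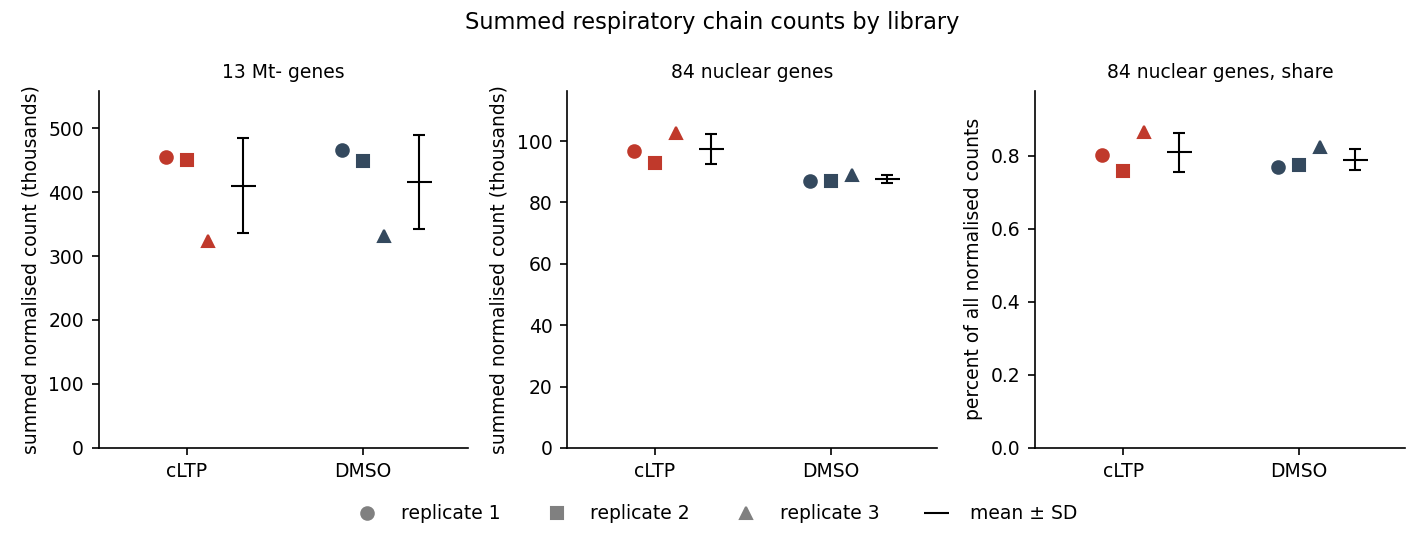
Summed normalised counts of the 13 Mt- members (left) and the 84 nuclear members (middle), and the nuclear sum as a percent of all normalised counts (right), by library, with replicate numbers as symbols and bars at mean ± SD (n = 3). The nuclear sum averages 97413 in cLTP and 87667 in DMSO without overlap, and its share and the Mt- sum overlap between the groups.

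Ndufa5, an accessory subunit in the peripheral arm of complex I, changed most. It had 1204, 1285 and 1407 normalised counts in cLTP 1, 2 and 3, against 604, 579 and 550.4 in DMSO 1, 2 and 3. Every cLTP library was far above every DMSO library, and the spread within each group was small (1299 ± 102 in cLTP and 578 ± 26.8 in DMSO, SD, n = 3 each). The fold was 2.24 (95% interval 1.97 to 2.56), with an adjusted p of 3.95e-05 in limma. It was the only one of the 37 nuclear complex I rows to pass without the block, and it passed under every scaling, count test and left-out library, with a fold of 2.07 when libraries were scaled to equal totals.

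Forskolin and rolipram raise cAMP, and the factor CREB is known to bind cAMP response elements (CRE) with the palindrome TGACGTCA or its shorter core TGACG. NRF1 is a known activator of nuclear respiratory chain genes. The proximal promoters of the members that rose are therefore shown, from 250 bases before to 50 bases after the RefSeq start (build GRCr8, while the deposited values were made on rn6), with capitals marking every match to a searched motif on either strand. The Ndufa5 promoter, at chr4:53971186-53971485 on the minus strand, holds a CRE core at -86 to -82, an NRF1 match at -32 to -23 and an SP1 match (GGGCGG) at -3 to 3, counted from the start as 1 with no position 0.
Ndufa5: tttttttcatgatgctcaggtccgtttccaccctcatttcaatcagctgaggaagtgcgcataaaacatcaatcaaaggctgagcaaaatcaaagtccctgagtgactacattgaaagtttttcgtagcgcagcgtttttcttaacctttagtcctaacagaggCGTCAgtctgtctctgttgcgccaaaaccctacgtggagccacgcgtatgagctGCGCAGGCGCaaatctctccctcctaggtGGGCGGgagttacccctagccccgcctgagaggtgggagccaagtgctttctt
The Atp5f1d promoter, at chr7:10214301-10214600 on the minus strand, holds an AP-1 match (TGANTCA) at -220 to -214 and a CRE core after the start, at 27 to 31.
Atp5f1d: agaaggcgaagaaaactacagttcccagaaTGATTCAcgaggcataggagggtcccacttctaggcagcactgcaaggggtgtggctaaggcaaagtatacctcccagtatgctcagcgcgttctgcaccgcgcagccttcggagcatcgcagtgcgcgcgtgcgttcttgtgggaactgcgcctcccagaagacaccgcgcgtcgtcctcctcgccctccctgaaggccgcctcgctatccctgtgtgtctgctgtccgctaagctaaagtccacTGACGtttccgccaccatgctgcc
The Cycs promoter, at chr4:80984718-80985017 on the minus strand, holds a CRE core at -101 to -97.
Cycs: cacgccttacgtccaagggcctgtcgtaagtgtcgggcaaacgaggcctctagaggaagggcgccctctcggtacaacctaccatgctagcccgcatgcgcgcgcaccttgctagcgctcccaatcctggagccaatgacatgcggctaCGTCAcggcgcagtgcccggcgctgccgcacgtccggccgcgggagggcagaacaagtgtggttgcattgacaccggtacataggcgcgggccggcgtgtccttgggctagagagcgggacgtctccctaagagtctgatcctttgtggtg

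The fourth member that rose, Cox7a2l2, had 0 matches in its window. Such short motifs are common. Of the 81 distinct symbols among the nuclear members, 70 had a promoter in the RefSeq table, and 45.7% of these held the CRE core, against 31.8% of the 10059 promoters of genes with a mean of at least 10 and 22.0% of all 27457 promoters. The full palindrome, which contains the core on both strands, was found for 4 members, Cox8a, Ndufa10, Ndufb2 and Sdhb (5.71%, against 3.24% of the promoters of genes with a mean of at least 10). None of these 4 passed the test without the block. Their folds were 1.12, 1.11, 1.13 and 1.01, and with the block Cox8a (adjusted p = 0.0190) and Ndufa10 (adjusted p = 0.0337) passed in limma. NRF1 matches were found for 18.6% of member promoters against 10.03% of the expressed genes' promoters, YY1 matches (AAGATGGC) for 21.4% against 5.48%, ETS matches (CCGGAAG) for 27.1% against 16.9% and ERR matches (AAGGTCA) for 14.3% against 2.65%. SP1 matches were found for 38.6% against 63.3%, and AP-1 matches for 7.14% against 4.59%. A match describes the letters in the window and does not show that a factor binds there.

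Atp5f1d, the delta subunit in the central stalk of the F1 part of ATP synthase, rose as well. It had 1937, 2008 and 2190.4 normalised counts in the cLTP libraries, against 1451, 1473 and 1564 in the DMSO libraries, and the groups did not overlap. The fold was 1.37 (95% interval 1.21 to 1.54; adjusted p = 0.00703 in limma), and leaving out any library kept the adjusted p at 0.0443 or lower. Its fold was 1.26 with equal totals (adjusted p = 0.0364) and 1.25 after quantile normalisation (adjusted p = 0.0300).

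Cycs, cytochrome c, the soluble carrier between complexes III and IV that also triggers caspase activation when it leaves the mitochondrion, had 216, 179 and 206 normalised counts in the cLTP libraries, against 156, 127 and 136 in the DMSO libraries. All cLTP values were higher, with a fold of 1.43 (95% interval 1.18 to 1.74; adjusted p = 0.0343 in limma, and 0.000871 with the block). Cox7a2l2, a row named after the complex IV subunit gene Cox7a2, had 663, 600.1 and 663 normalised counts in the cLTP libraries, against 508, 522 and 462 in the DMSO libraries. The groups did not overlap, and the fold was 1.29 (95% interval 1.13 to 1.48; adjusted p = 0.0288 in limma, and 0.000818 with the block). Both calls were lost with equal totals (adjusted p = 0.0735 for Cycs and 0.0947 for Cox7a2l2) and without some single libraries, where the adjusted p reached 0.141 and 0.126. RefSeq gives Cox7a2l2 a span of 459 bases. No row carried the symbol Cox7a2 itself, and no further row carried the symbol Cycs. Reads from near-identical copies of Cycs or Cox7a2 may have been counted in the Cycs and Cox7a2l2 rows, which was not tested.

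**Figure D4:**
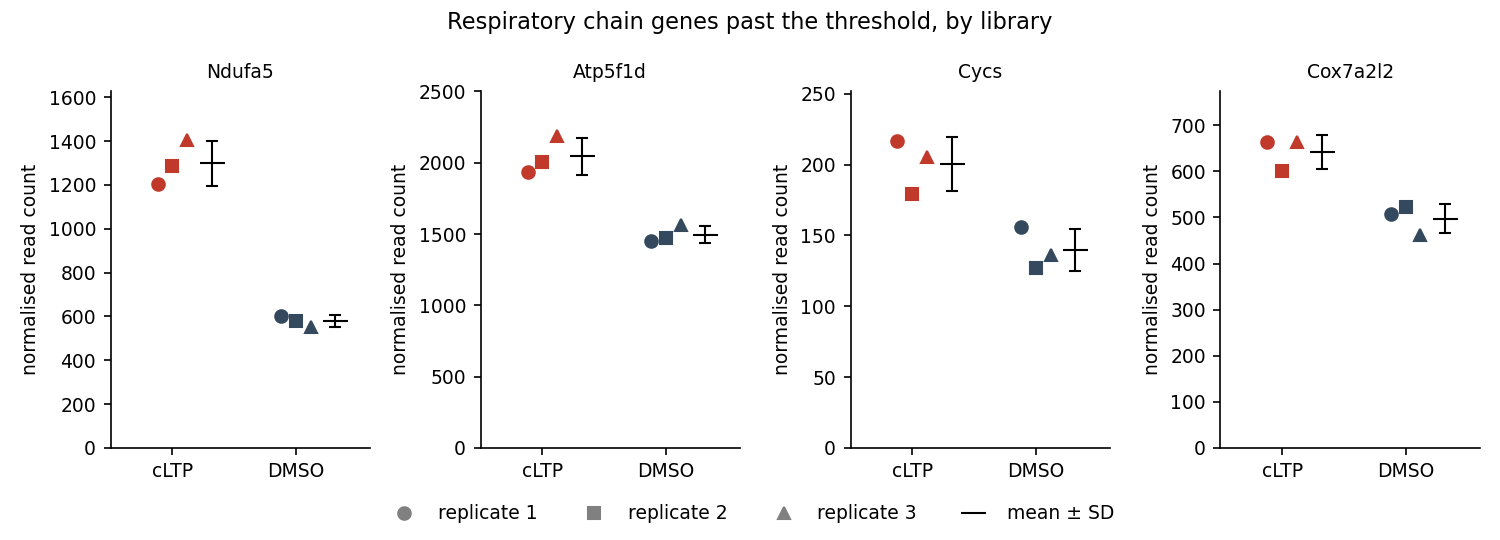
Normalised counts of the 4 nuclear members that passed an adjusted p of 0.05, by library, with replicate numbers as symbols and bars at mean ± SD (n = 3). In each panel all cLTP libraries lie above all DMSO libraries, and the gap is widest for Ndufa5 (1299 ± 102 against 578 ± 26.8).

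Genes next to these members were looked up after the members' values were seen. Iqub, which starts 597 bases past the end of Ndufa5 on the same strand in RefSeq, had 241, 415 and 339 normalised counts in cLTP libraries, against 169, 139 and 167 in DMSO libraries (fold 2.04, adjusted p = 0.0104 in limma). Asb15, farther from Ndufa5, had 2.25, 4.15 and 2.03 in cLTP libraries, against 1.90, 1.76 and 2.95 in DMSO libraries, with overlap (fold 1.17, adjusted p = 0.845 in limma). Atp5f1d overlaps Cbarp on the opposite strand and lies 696 bases from Midn. Midn had 3998, 4089 and 4194 normalised counts in cLTP libraries, against 1827, 1735 and 1541 in DMSO libraries (fold 2.41, adjusted p = 2.39e-05 in limma). Cbarp had 5021, 4962 and 6272 in cLTP libraries, against 3177, 3369 and 4557 in DMSO libraries, and passed only with the block (fold 1.47, adjusted p = 0.0554 without and 9.95e-08 with it, in limma). Stk11, 6214 bases away, had 1075, 1084 and 989 in cLTP libraries, against 761, 797 and 731 in DMSO libraries (fold 1.37, adjusted p = 0.00582 in limma). Of these neighbours, Iqub, Midn, Cbarp and Stk11 had every cLTP library above every DMSO library, and Asb15 did not. The libraries are strand-specific per the labels, but no source used here gives the strand setting of the counting, so the part of reads shared with these neighbours was not tested.

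The other nuclear complex I genes moved little. Their group comprises the catalytic core of the peripheral arm and many accessory subunits. Without the block 34 of all 37 rows, Ndufa5 included, were positive (91.9%, beside 50.4% of all genes tested). The median log2 fold change of these 37 was 0.10. Ndufs1, the large iron-sulphur subunit and the row with the highest mean in this group, had 1857, 1879 and 1962 normalised counts in cLTP libraries, against 1794, 1741 and 1794 in DMSO libraries. All cLTP values were above all DMSO values, but the fold of 1.07 did not pass (adjusted p = 0.490 in limma). Ndufa4, named for complex I but known as a subunit of complex IV, had 1887, 1745 and 2088 in cLTP libraries, against 1660.1, 1535 and 1756 in DMSO libraries. The groups overlapped narrowly, and the fold of 1.15 passed only with the block (adjusted p = 0.232 without and 0.00441 with it, in limma). Its relative Ndufa4l2, known as a gene induced in low oxygen, was barely detected at 23.7, 16.6 and 16.3 in cLTP libraries, against 16.2, 17.6 and 9.85 in DMSO libraries, and its groups overlapped.

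Ndufv3, an accessory subunit of the NADH-oxidising module, was the complex I row with the most negative value, at 645, 566 and 582 normalised counts in cLTP libraries, against 632, 613 and 580.0 in DMSO libraries. The groups overlapped (fold 0.982). A further row of that symbol had a mean of 13.8 over all libraries, the lowest of any member, followed by Ndufa4l2 with 16.7. Just outside the limit of 10 were Cox6b2 with a mean of 5.95 and Ndufa10l1 with 2.65. The other complex I rows that rose with the block were Ndufa10 (fold 1.11) and Ndufb4 (fold 1.14, adjusted p = 0.0463 in limma).

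Complex II, the succinate dehydrogenase that also belongs to the citric acid cycle, is encoded in the nucleus alone. Of its 4 genes 0 passed with or without the block, beside 12.9% and 5.71% of all genes tested that were higher. Sdha, its flavoprotein, had 2232, 2256 and 2254 normalised counts in cLTP libraries, against 2141, 2079.8 and 2104 in DMSO libraries. Sdhd, a membrane anchor, had 981, 906 and 989.9 in cLTP libraries, against 861, 842 and 878 in DMSO libraries. For both, every cLTP library was above every DMSO library, with folds of 1.07 (adjusted p = 0.4997 in limma) and 1.11 (adjusted p = 0.266). Sdhb, the iron-sulphur subunit, had 1031, 1013 and 1011 in cLTP libraries, against 993, 1025 and 1002 in DMSO libraries. These groups overlapped (fold 1.01, 95% interval 0.911 to 1.12).

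All 10 complex III rows had positive values (beside 50.4% of all genes tested), with a median log2 fold change of 0.13. With the block 5 were higher (50%, beside 12.9% of all genes tested), namely Uqcr10, Uqcr11, Uqcrc1, Uqcrc2 and Uqcrh. Without it 0 were (beside 5.71%). Uqcrc2, a core protein, had 2776, 2694 and 3066 normalised counts in cLTP libraries, against 2545, 2547 and 2661 in DMSO libraries. Uqcrh, the hinge protein, had 1079, 963 and 1052 in cLTP libraries, against 952, 892 and 887 in DMSO libraries. Every cLTP library was higher in both, with folds of 1.10 (adjusted p = 0.371 without and 0.0446 with the block, in limma; slightly negative after quantile normalisation) and 1.13 (adjusted p = 0.225 and 0.0264). Cyc1, the haem-bearing cytochrome c1 of the complex, had 1233, 1256 and 1339.9 in cLTP libraries, against 1212, 1209 and 1269 in DMSO libraries. Its groups overlapped (fold 1.04), unlike those of Cycs, the partner it passes electrons to.

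Complex IV includes several subunits with tissue-specific isoforms. Of its 14 nuclear rows, 12 were positive (85.7%, beside 50.4% of all genes tested). In 8 of them all cLTP libraries were above all DMSO libraries (57.1%, beside 15.0% of all genes tested). Cox4i1, the common isoform of the largest nuclear subunit, had 2905, 2622 and 2937 normalised counts in cLTP libraries, against 2411, 2439 and 2467 in DMSO libraries. Cox8a had 2061, 1946 and 2052 in cLTP libraries, against 1747, 1825 and 1817 in DMSO libraries. The groups did not overlap for either gene, and both passed only with the block (Cox4i1 fold 1.16, adjusted p = 0.143 without and 0.00443 with it, in limma; Cox8a fold 1.12, adjusted p = 0.197 without it). Cox5b, Cox6c and Cox7c also passed with the block alone, with folds of 1.14, 1.20 and 1.15.

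Cox7a1, the isoform best known from heart and skeletal muscle, was the only nuclear member with every cLTP library below every DMSO library. It was low in all libraries, at 20.3, 18.7 and 22.4 normalised counts in cLTP, against 33.3, 36.0 and 28.6 in DMSO. The fold was 0.639 (95% interval 0.460 to 0.887), and the adjusted p was 0.102 without and 0.0516 with the block in limma; it passed with equal totals (adjusted p = 0.0473). The summed endothelial and mural cell markers were also lower, at 111 to 154 in cLTP, against 322 to 420.5 in DMSO. Per library 4 or 5 of the 5 markers were detected. The drop was that of Pdgfrb alone (66.1 to 113 in cLTP and 267 to 376 in DMSO), which made up most of the sum. Flt1 (5.09 to 13.5 in cLTP and 8.86 to 12.3 in DMSO), Kdr (25.9 to 36.6 and 26.3 to 44.3) and Rgs5 (1.13 to 3.11 and 1.97 to 5.71) overlapped between the groups. The endothelial marker Cldn5 was at 0 to 2.07 in cLTP and at 0 in all DMSO libraries. The part of these cells in the Cox7a1 values was not tested. Cox6a2, another muscle isoform, had 24.8, 38.3 and 56.0 in cLTP libraries, against 31.4, 35.1 and 60.1 in DMSO libraries, and the groups overlapped. Its broadly expressed counterpart Cox6a1 had 1970.5, 1885 and 2276 in cLTP libraries, against 1883, 1787 and 2061 in DMSO libraries. These groups overlapped as well, and neither Cox6a isoform passed with the block.

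The remaining complex IV variants did not pass in either fit. Cox7a2l, an assembly factor for supercomplexes of complexes III and IV, had 1660.5, 1654 and 1747 normalised counts in cLTP libraries, against 1577, 1554 and 1567 in DMSO libraries, without overlap (fold 1.08, adjusted p = 0.427 in limma). Cox7b had 800.4, 728 and 797 in cLTP libraries, against 663, 723 and 741 in DMSO libraries, and its groups overlapped. Cox6b1 has 2 rows, which may share reads. The higher row had 1309.9, 1233 and 1373 in cLTP libraries, against 1208, 1168 and 1206 in DMSO libraries, without overlap (fold 1.09). The lower row had 132, 147 and 180.1 in cLTP libraries, against 139.8, 135 and 125 in DMSO libraries, with overlap.

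Among the complexes with several nuclear rows, ATP synthase had the highest share of rows with separated groups. Of 18 rows, 17 were positive (94.4%, beside 50.4% of all genes tested). In 12 (66.7%, beside 15.0% of all genes tested) all cLTP libraries were above all DMSO libraries. With the block 9 passed (50%, beside 12.9% of all genes tested), Atp5f1d among them. Atp5f1b, the catalytic beta subunit, had 11698, 11106 and 12763 normalised counts in cLTP libraries, against 10232, 10467 and 10812 in DMSO libraries. Atp5if1, the inhibitor that stops the enzyme from running backwards, had 963, 957 and 1122 in cLTP libraries, against 904, 852 and 870.5 in DMSO libraries. Both were separated and passed with the block alone, with folds of 1.13 (adjusted p = 0.309 without and 0.00872 with it, in limma; negative after quantile normalisation) and 1.16 (adjusted p = 0.196 and 0.0190).

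Identical copies of the membrane ring subunit c are made from 3 genes that differ in their import sequences. Atp5mc1 had 929, 1028 and 1161 normalised counts in cLTP libraries, against 796, 899 and 1065 in DMSO libraries. The groups overlapped, although each cLTP library was above the DMSO library of its own number, and the gene passed with the block (fold 1.13, adjusted p = 0.470 without and 0.0236 with it, in limma). Atp5mc2 had 1019, 976 and 958 in cLTP libraries, against 898, 991 and 905 in DMSO libraries, with overlap. Atp5mc3 had 1866, 1830.3 and 1996 in cLTP libraries, against 1777, 1794 and 1657 in DMSO libraries, without overlap, and did not pass in either fit (fold 1.09). Atp5pb, a subunit of the peripheral stalk, was the only negative row, at 85.7, 79.8 and 67.1 in cLTP libraries, against 62.8, 101 and 91.6 in DMSO libraries, and its groups overlapped (fold 0.925).

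Without the block none of the 13 Mt- members passed in either direction. The count was 0 higher and 0 lower with limma, beside 5.71% and 3.31% of all genes tested, and likewise with edgeR and DESeq2. At an unadjusted p under 0.05 in limma it was 0 as well, beside 11.1% higher and 9.90% lower of all genes tested. The median log2 fold change was -0.06 (fold 0.958). In all 13 the groups overlapped, as they did in 12428 of the 17315 genes tested. Of the members 3 were positive and 10 negative, beside 50.4% and 49.6% of all genes tested. Under every replicate number 6 were lower and 1 higher (46.2% and 7.69%, beside 24.9% and 27.5% of all genes tested). Single values ran from -0.16 for Mt-nd4l to 0.14 for Mt-nd6 on the log2 scale. The Mt- members summed to 455334, 450103 and 323865 normalised counts in cLTP 1, 2 and 3, against 466402, 447952 and 331018 in DMSO 1, 2 and 3. Replicate 3 was low in both groups, as were its summed astrocyte markers, while its microglial markers were high; their part in these values was not tested. As a share of all normalised counts the Mt- members made up 3.40% ± 0.584 in cLTP and 3.73% ± 0.583 in DMSO (SD, n = 3 each), a difference of -0.33 percentage points. That is within the SD of each group, which includes the low replicate 3 (2.73% in cLTP and 3.06% in DMSO). Between libraries of the same number the cLTP share was lower each time, with differences of -0.34, -0.31 and -0.33 percentage points in replicates 1, 2 and 3.

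With the replicate number as a block, the errors of the Mt- members were smaller. The median standard error of the Mt- log2 fold changes was 0.18 without and 0.042 with the block, and with the block 1 member, Mt-nd4l, was lower (adjusted p = 0.0165 in limma), 7.69% of the Mt- members beside 10.7% of all genes tested. Leaving out a single library moved the Mt- median between -0.21 (without DMSO 3) and 0.10 (without cLTP 3, when all 13 were positive), so its sign is not settled without the block. Scaling to equal totals moved it to -0.18, and 11 of the 13 were lower when that scaling was combined with the block, beside that same 23.1% of all genes tested. Relative to the median of all genes, the Mt- median was -0.07 with equal totals and -0.06 as deposited.

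Of the 7 complex I subunits made in the organelle, 6 had negative values. Mt-nd4l had 6508, 6953 and 4666 normalised counts in cLTP libraries, against 7852, 7483 and 5050.5 in DMSO libraries, and it was lower under every replicate number (fold 0.893, 95% interval 0.649 to 1.23). Its reading frame overlaps that of Mt-nd4 on the same transcript. Mt-nd4 had 5043, 4379 and 3026 in cLTP libraries, against 5171, 4715 and 3444 in DMSO libraries, also lower under every number (fold 0.927), though it did not pass with the block (adjusted p = 0.104 in limma). Mt-nd5 had 36337, 38019 and 24564 in cLTP libraries, against 39899, 39631 and 26733 in DMSO libraries. Mt-nd1 had 24027, 24225 and 16131 in cLTP libraries, against 26344, 24288 and 17674 in DMSO libraries. These too were lower under every number, with folds of 0.929 and 0.940.

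Mt-nd2 had 45614, 50594 and 32467 normalised counts in cLTP libraries, against 47532, 49238 and 33305 in DMSO libraries. Mt-nd3 had 4409.9, 4300.0 and 3142 in cLTP libraries, against 4280.1, 4598 and 3643 in DMSO libraries. Both were mixed in direction across the replicate numbers. Mt-nd6, the only protein-coding gene on the opposite strand of the mitochondrial genome, had 2034, 1897 and 1578 in cLTP libraries, against 1476, 1947 and 1591 in DMSO libraries. Its positive value (fold 1.10, 95% interval 0.901 to 1.34) rested on replicate 1, where the difference was 0.46 on the log2 scale, against -0.04 and -0.01 in replicates 2 and 3.

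The core subunits of complexes III, IV and V made in the organelle had folds between 0.940 and 1.03, and as deposited none passed in either fit. Their limma intervals without the block were wide, such as 0.721 to 1.29 for Mt-cyb and 0.770 to 1.37 for Mt-co1. With the block and equal totals, all of them except Mt-co1 were called lower, so their calls depended on the scaling. Mt-cyb, cytochrome b, had 51589, 50765 and 36673 normalised counts in cLTP libraries, against 55889, 51075 and 37514 in DMSO libraries (fold 0.964). Mt-co1, the catalytic subunit of complex IV, had 134891, 121857 and 92376 in cLTP libraries, against 129533, 118191 and 91314 in DMSO libraries, and was the only Mt- member higher under every replicate number (fold 1.03, adjusted p = 0.530 with the block in limma). Mt-co2, which holds the copper centre that accepts electrons from cytochrome c, had 35809, 37245 and 28578 in cLTP libraries, against 39297, 38533 and 28628 in DMSO libraries, lower under every number (fold 0.958). Mt-co3 had 54088, 53021 and 39350.3 in cLTP libraries, against 54139, 51183 and 39390.5 in DMSO libraries (fold 1.01), nearly equal in replicates 1 and 3. Mt-atp6, the proton channel subunit, had 46888, 47661 and 34856 in cLTP libraries, against 45767, 47902 and 35889.9 in DMSO libraries (fold 0.997). Mt-atp8, whose reading frame overlaps that of Mt-atp6, had 8095, 9187 and 6459 in cLTP libraries, against 9222, 9169 and 6839.6 in DMSO libraries (fold 0.940). Mixed directions across numbers were seen for Mt-co3, Mt-atp6 and Mt-atp8.

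Set side by side, the summed Mt- members were 4.71, 4.85 and 3.15 times the summed nuclear members in cLTP 1, 2 and 3, against 5.37, 5.15 and 3.72 times in DMSO 1, 2 and 3. The ratio was lower in the cLTP library under every replicate number, while the groups as a whole overlapped (4.24 ± 0.941 in cLTP and 4.74 ± 0.897 in DMSO, SD, n = 3 each).

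Genes that regulate or serve the respiratory chain were followed in 6 lists of 138 symbols, 133 of which were matched to a row. Of 16 tested regulators of mitochondrial biogenesis, 1 rose and 1 fell without the block (6.25% each, beside 5.71% and 3.31% of all genes tested). With the block 2 rose and 3 fell (12.5% and 18.75%, beside 12.9% and 10.7% of all genes tested). Ppard, a fatty acid sensing nuclear receptor, had 953, 988 and 754 normalised counts in cLTP libraries, against 629.8, 641 and 489 in DMSO libraries (fold 1.53, adjusted p = 0.0243 in limma). Prkaa1, a catalytic subunit of the energy sensor AMPK, had 291, 359.6 and 310.3 in cLTP libraries, against 449, 483 and 459.9 in DMSO libraries (fold 0.689, adjusted p = 0.00995 in limma). The groups were separated for both genes. Without single libraries these calls were lost, for Ppard without cLTP 1 (adjusted p = 0.115 in limma), cLTP 2 (0.0927) or DMSO 1 (0.0533), and for Prkaa1 without cLTP 1 (0.0515) or DMSO 2 (0.0507). The block added Nfe2l2, a regulator of antioxidant genes, as higher (fold 1.39) and, as lower, Gabpb1, a subunit of an ETS factor known to drive respiratory chain genes (fold 0.786), and Prkaa2, the other catalytic subunit of AMPK (fold 0.820). Ppargc1a, the coactivator PGC-1alpha and a known CREB target in other tissues, had 431, 504 and 408 in cLTP libraries, against 459, 406 and 406 in DMSO libraries, with overlap (fold 1.05, adjusted p = 0.763 in limma). Its cLTP value was highest in replicate 2 and close to the DMSO values in the others.

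Among 29 genes that transcribe, copy or process mitochondrial DNA and RNA, 2 rose and 0 fell without the block (6.90% and 0%, beside 5.71% and 3.31% of all genes tested). With the block 4 rose and 6 fell (13.8% and 20.7%, beside 12.9% and 10.7% of all genes tested). Trmt10c, a subunit of the RNase P that cuts tRNAs out of mitochondrial transcripts, had 1059.7, 911 and 940.1 normalised counts in cLTP libraries, against 319.6, 342 and 282 in DMSO libraries. Every cLTP value was well above every DMSO value (fold 3.08, 95% interval 2.64 to 3.61; adjusted p = 1.72e-05 in limma). Fastkd5, which processes mitochondrial RNA ends lacking a tRNA and was matched through a RefSeq synonym, had 169, 200.0 and 167 in cLTP libraries, against 119, 135 and 103 in DMSO libraries (fold 1.499, adjusted p = 0.0308 in limma). The Fastkd5 call was lost without cLTP 1, cLTP 2, cLTP 3, DMSO 1 or DMSO 3, where the adjusted p was 0.0521 to 0.111. Tfam, the packaging and transcription factor of mitochondrial DNA, had 277, 296 and 259 in cLTP libraries, against 321, 341 and 339 in DMSO libraries. All Tfam values were lower in cLTP, and the gene passed with the block alone (fold 0.833, adjusted p = 0.124 without and 0.0233 with it, in limma). The list's median log2 fold change was -0.10.

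Few assembly factors passed. Of 16 for complex I and 34 for complexes II to V, 0 passed in limma, edgeR or DESeq2 without the block. In limma 5.71% of all genes tested were higher and 3.31% lower. At an unadjusted p under 0.05, 0 and 3 were higher (beside 11.1% of all genes tested) and 1 and 0 lower (beside 9.90%). With the block 1 complex I factor was lower (6.25%, beside 10.7% of all genes tested). In that fit 1 factor of the other complexes was higher (2.94%, beside 12.9%). In the citric acid cycle and pyruvate dehydrogenase list, 0 of 21 rose and 1 fell without the block (0% and 4.76%, beside 5.71% and 3.31% of all genes tested). With the block 7 rose and 1 fell (33.3% and 4.76%, beside 12.9% and 10.7% of all genes tested). The gene that fell was Pdk4, a kinase that switches off pyruvate dehydrogenase, with 6.76, 7.25 and 5.09 normalised counts in cLTP libraries, against 21.9, 16.7 and 15.8 in DMSO libraries. The groups were separated, but the cLTP values lay only a few reads above the floor of 3 reads (2.63 to 3.38 on this scale). The fold was 0.386, with an adjusted p of 0.0198 in limma and 0.0660 in DESeq2, and the call was lost without cLTP 1, cLTP 3, DMSO 1 or DMSO 2 (adjusted p 0.0561 to 0.0977).

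Of 17 mitochondrial carriers, channels and antioxidant genes, 2 rose without the block (11.8%, beside 5.71% of all genes tested) and 6 with it (35.3%, beside 12.9%), and 0 fell in either fit (3.31% and 10.7% of all genes tested). Slc25a3, the phosphate carrier that supplies ATP synthase, had 5087, 4954 and 5249 normalised counts in cLTP libraries, against 3201, 3308 and 3089 in DMSO libraries (fold 1.59, adjusted p = 0.000509 in limma). Vdac1, the main outer membrane channel, had 3578, 3745 and 3809 in cLTP libraries, against 2752, 2897 and 2905 in DMSO libraries (fold 1.30, adjusted p = 0.0110 in limma). For both genes every cLTP library was above every DMSO library. The Vdac1 call was lost with equal totals (adjusted p = 0.0635), after quantile normalisation (0.0835) and without DMSO 1 (0.0707), and the Slc25a3 call in none of the settings tried.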

How the data were processed

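Per the labels' protocols, strand-specific libraries were made from poly-A RNA. The submitters' processing notes name bcl2fastq, STAR, DESeq2 and build rn6; versions, the counting tool and its strand setting are not stated there. The deposited signal values are gene counts that the authors divided by a size factor: 100% of the values above 0 were whole multiples of a single read (tolerance 0.01), so reads were recovered. Because these values are normalised, limma replaced the edgeR test planned for raw counts.

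limma 3.58.1 (R 4.3.3, eBayes with trend and robust) compared 3 cLTP with 3 DMSO libraries on log2(value + 1), for 17315 genes with a mean of at least 1, among them all 97 members. Folds on this scale understate changes of low genes. P-values are two-sided, adjusted by Benjamini-Hochberg. As the labels state neither litter nor day, they measure the spread between these cultures. edgeR 4.0.16 (quasi-likelihood, TMM) and DESeq2 1.42.0 on recovered reads were alternatives. Simulated counts were used to test the scripts. Replicates of a group differed beyond counting noise (chi-square divided by its degrees of freedom, 3.84 to 18.8). Same-numbered libraries had the highest correlations, so the numbers were taken as pairs; the pairing rests on this check, and DMSO 1 with cLTP 2 reached 0.19. Block values are given where they change a call. Named are all Mt- members, members past the threshold, the highest and the most changed rows of each complex, isoform variants, and up to 2 list genes per direction; others were named after their values were seen. The members and lists were chosen with earlier results of these data known.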

Additional observations from a re-analysis of the deposited data

How the results depend on the processing

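In this section the 42 named members are those chosen by rule, without those named after their values were seen. Their direction and call held with edgeR, DESeq2, pseudocounts of 0.5 and 10, no filter on low values and a mean of at least 10. Quantile normalisation kept every call among them, but 9 named members that had not passed changed sign. Over all 84 nuclear members, 78 values were positive as deposited, 60 after quantile normalisation and 50 with equal totals. The median log2 fold change of all genes was 0.002, -0.050 and -0.11 in the same order. The sign changes given below are those of named members only. The replicate block raised the count of all genes past the threshold to 4075 (1561 without it). It raised that of nuclear members higher to 25 (4 without it) and of Mt- members lower to 1 (0 without it). With the block 9 of the 42 named rows gained a call and 0 lost one. Equal totals left 2 nuclear members higher and made 1 lower, with a nuclear median of 0.011, and quantile normalisation gave a nuclear median of 0.050; the block does not move these medians. Chosen after seeing the data, the block with equal totals called 5408 genes, 1 nuclear and 11 Mt- members lower, and with quantile normalisation 4344 genes, 1 nuclear and 6 Mt- members lower. The log2 values that changed sign with equal totals, with or without the block, were -0.077 for Mt-co1, -0.10 for Mt-co3, -0.020 for Ndufs1, -0.024 for Sdha, -0.10 for Sdhb, -0.064 for Cyc1, -0.021 for Cox6a1, -0.0093 for Cox7a2l and -0.035 for Atp5mc2, and only Mt-co3 passed there, with the block. After quantile normalisation, with or without the block, they were -0.048 for Mt-co1, -0.019 for Ndufs1, -0.038 for Sdha, -0.071 for Sdhb, -0.0024 for Uqcrc2, -0.057 for Cyc1, -0.062 for Atp5f1b, -0.033 for Cox6a1 and -0.00080 for Cox7a2l, and 0 passed. Leaving out 1 library gave 953 to 1408 genes, 2 to 4 nuclear members higher, a nuclear median of 0.09 to 0.16 and an Mt- median of -0.21 to 0.10, which turned positive without cLTP 3 (0.10), DMSO 1 (0.03) or DMSO 2 (0.0002); those fits also break a pair. Their log2 values changed sign for 15 of the 42 named members, all without a call. They did so for further members outside the 42, among them the further Ndufv3 row (-0.31 to 0.23). The named ranges were -0.26 to 0.10 for Mt-nd1, -0.20 to 0.17 for Mt-nd2, -0.18 to 0.068 for Mt-nd3 and -0.28 to 0.10 for Mt-nd4. They were -0.36 to 0.012 for Mt-nd4l, -0.30 to 0.094 for Mt-nd5, -0.22 to 0.11 for Mt-cyb and -0.11 to 0.20 for Mt-co1. Ranges of -0.21 to 0.056 for Mt-co2, -0.12 to 0.16 for Mt-co3, -0.13 to 0.14 for Mt-atp6 and -0.23 to 0.050 for Mt-atp8 followed. The nuclear ranges were -0.083 to 0.011 for Ndufv3, -0.31 to 0.024 for Atp5pb and -0.38 to 0.19 for Cox6a2. Without replicate 3 of both groups 2 nuclear members, Ndufa5 and Atp5f1d, were higher, with a median of 0.10, and Mt-atp6 (0.014) and Atp5pb (0.053) turned positive. The causes were not tested. The Mt- share differed by -0.33 percentage points, and by -0.35 relative to all other genes. Rows near 3 reads, such as Pdk4, were measured with low precision, and 21 of the 25 nuclear calls were made with the block alone.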
